A study of Mus musculus with 57 samples.

Results

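The 9 cortex libraries of each histone mark in this study carry the title numbers 01 to 09, and the description here compares a pair of sets of them that no label names. Set A holds the libraries numbered 03, 04, 05, 08 and 09, and set B those numbered 01, 02, 06 and 07, with the same numbers in H3K27ac and in H3K4me3. Together these are 18 of the 57 samples of the series. The sets were chosen by the data: of the 126 ways to split 9 libraries into 5 and 4, this split gave the largest gap between the correlation within and between sets in both marks. Values of H3K27ac and H3K4me3 between the sets are therefore a description and carry no test. The 9 cortex libraries of the mark H3K27me3 took no part in that choice, and the same split was tested in them.

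All 9 mice were PSAPP animals, a model of Alzheimer's disease that carries mutant human transgenes for amyloid precursor protein and presenilin 1, and no wild-type cortex was analysed here. They were killed at 13 months of age, having been singly housed on a fixed daily ration of a modified AIN-93 diet since the age of 6 months. The frozen brain cortex was the source of chromatin, and the study's methods give 10 mg of tissue for an extraction. The labels name neither a cortical area nor the borders of the dissection. They also do not say that equal numbers in different marks are the same mouse, which the comparisons across marks assume. Sex is not in the labels. Xist, the RNA that coats the inactive X chromosome of female cells, had an H3K4me3 peak in libraries 05 to 09 and none in 01 to 04, so each set holds libraries of both kinds.

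H3K4me3 marks the start sites of active genes, and H3K27ac marks active promoters and enhancers. H3K27me3 is laid down by Polycomb repressive complexes over silent genes, often in broad domains over regulators of development. In bulk tissue each mark is a sum over cells, so a gene that is active in few cells can carry H3K4me3 from those cells and H3K27me3 from the rest. The neurons of the cerebral cortex are mostly glutamatergic pyramidal cells with a minority of GABAergic interneurons, while the underlying striatum consists mostly of GABAergic spiny projection neurons.

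Each deposited file lists the peaks of a library with the reads under each. Sequencing depth, as reads in autosomal peaks, was 9.32 to 18.6 M (M for 1000000 reads) per library for H3K4me3, 3.90 to 6.35 M for H3K27me3 and 14.3 to 21.0 M for 8 of the H3K27ac libraries. H3K27ac library 09 was the exception, with 3.90 M reads. Levels below are normalised reads in CPM, read counts per 1000000 of a library's reads over the sites called in all 9 libraries of a mark, where a site is a merged region called in at least 3 of them. A gene's level is the sum over sites within 1 kb of its transcription start sites (TSS), and genes with a site in all 9 libraries were compared. A log2 difference is the mean over set A minus the mean over set B, and the sets are said not to overlap where every library of one lies above every library of the other.

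The grouping is small in terms of correlation. For H3K4me3, the mean Spearman correlation over 10 kb bins was 0.958 within sets and 0.949 between them, a gap of 0.00892. For H3K27ac it was 0.891 within and 0.859 between, a gap of 0.0321. A pair of libraries in different sets could still correlate better than a pair in one set, since the highest between-set value for H3K27ac was 0.902 and the lowest within-set value 0.853.

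**Figure D1:**
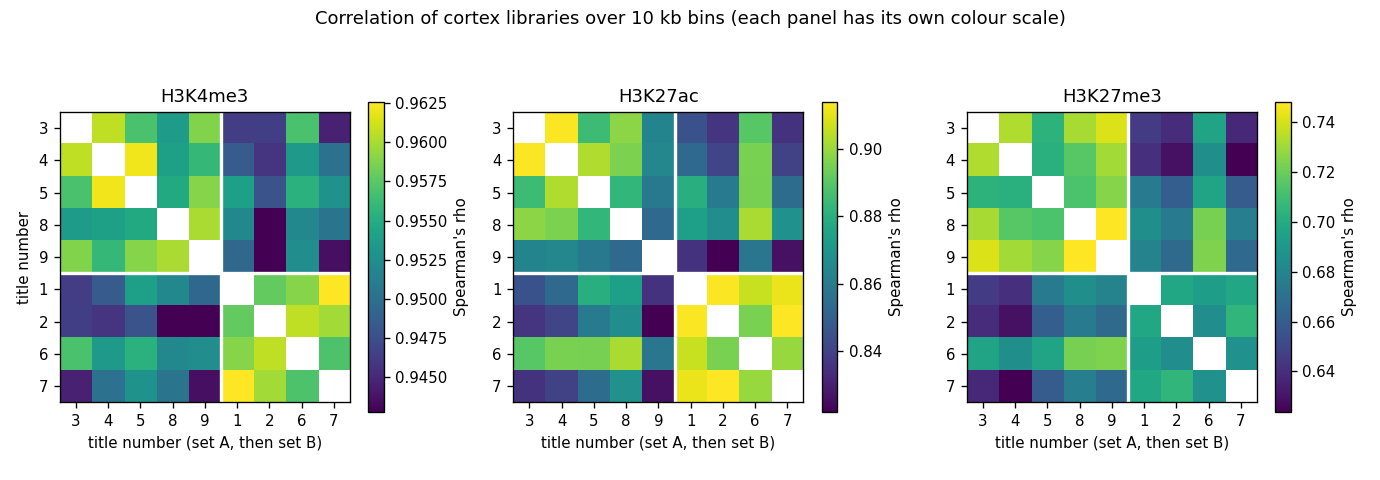
Spearman correlation of every pair of cortex libraries over 10 kb autosomal bins, 1 panel a mark, with the title number on both axes, set A first and white lines between the sets. Each panel has its own colour scale, and the blocks on the diagonal are lighter on average than those off it, with mean values of 0.958 against 0.949 for H3K4me3, 0.891 against 0.859 for H3K27ac and 0.713 against 0.669 for H3K27me3.

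Over all sites called in 9 libraries, few separated the sets. For H3K4me3, 897 of 16818 sites were higher in every library of set A and 844 in every library of set B, and 165 and 164 of them differed by at least 1.5-fold. For H3K27ac, 1021 of 25105 sites were higher in set A and 1515 in set B, of which 492 and 528 differed by at least 1.5-fold. The H3K27ac balance depended on the processing. With reads scaled per total in autosomal peaks the counts were 1177 and 1150. For H3K4me3 they were then 918 and 835. With sites that a library did not call entered at 0 reads, the H3K27ac counts were 1408 and 3167 and those of H3K4me3 1247 and 954. Single libraries bear on these counts. Without library 06 the H3K4me3 sites higher in set A numbered 1409, and those of H3K27ac 2340. Without library 05 the H3K27ac sites numbered 1881 for set A and 2329 for set B, and without library 08 those for set A numbered 1573.

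Genes of striatal projection neurons carried more of both active marks in set B. Of 15 genes in a list of striatal markers, 14 had an H3K4me3 promoter site in all 9 libraries, and 12 of these were higher in every set B library, where 5.35% of all 14634 genes were. None was higher in set A, against 4.29% of all genes. The median difference over the 14 genes was -1.06 on the log2 scale, beside -0.01 over all genes. In H3K27ac, 8 of 10 striatal genes were higher in every set B library, where 7.4% of 14928 genes were, none was higher in set A, where 2.02% were, and the median difference was -0.84, beside -0.05 over all genes. These 8 include Gng7, whose H3K27ac site is shared with other genes and cannot be assigned to it alone. With reads within 2.5 kb of the TSS in place of sites the medians were -0.53 in H3K4me3 and -0.31 in H3K27ac. These shares are what the choice of the sets acted on, and nothing is read from them.

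The promoters of 3 striatal genes and of 3 genes of cortical pyramidal neurons are shown because, of the genes in those lists with H3K4me3 sites that did not overlap, these had the largest differences and no annotated exon in the window. Each window is the 250 bases before the TSS in RefSeq (build GRCm38.p6, the assembly the submitters call mm10), read along the gene's strand, and each lay inside an H3K4me3 site called in all 9 libraries. Capitals mark matches on either strand to 6 motifs: the E-box CAGATG of proneural factors, a further E-box with the letters CAGCTG, the homeodomain core TAATTA, the cAMP response element TGACGTCA, the GC box written GGGCGG and the TATA box written TATAAA.
Six3 (chr17:85620584-85620833, plus strand): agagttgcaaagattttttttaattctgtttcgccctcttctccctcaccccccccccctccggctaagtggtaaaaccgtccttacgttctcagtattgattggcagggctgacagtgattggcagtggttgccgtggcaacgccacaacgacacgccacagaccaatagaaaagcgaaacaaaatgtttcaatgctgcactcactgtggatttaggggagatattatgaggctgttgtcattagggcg
Isl1 (chr13:116309689-116309938, minus strand): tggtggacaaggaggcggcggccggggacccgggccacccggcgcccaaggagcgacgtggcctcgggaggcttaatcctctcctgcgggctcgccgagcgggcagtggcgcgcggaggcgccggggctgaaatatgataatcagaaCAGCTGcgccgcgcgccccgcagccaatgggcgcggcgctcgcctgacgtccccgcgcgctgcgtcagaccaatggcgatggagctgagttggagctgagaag
Tac1 (chr6:7554811-7555060, plus strand): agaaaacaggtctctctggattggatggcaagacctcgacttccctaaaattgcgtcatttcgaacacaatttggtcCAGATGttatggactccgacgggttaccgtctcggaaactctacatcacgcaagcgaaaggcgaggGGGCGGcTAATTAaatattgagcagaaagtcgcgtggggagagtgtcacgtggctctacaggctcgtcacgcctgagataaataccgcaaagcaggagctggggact
Neurod6 (chr6:55681264-55681513, minus strand): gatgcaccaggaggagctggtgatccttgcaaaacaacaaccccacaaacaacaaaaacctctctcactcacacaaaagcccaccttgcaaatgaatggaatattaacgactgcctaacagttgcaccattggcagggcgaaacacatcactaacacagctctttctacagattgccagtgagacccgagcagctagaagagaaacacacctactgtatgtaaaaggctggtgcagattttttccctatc
Emx1 (chr6:85187681-85187930, plus strand): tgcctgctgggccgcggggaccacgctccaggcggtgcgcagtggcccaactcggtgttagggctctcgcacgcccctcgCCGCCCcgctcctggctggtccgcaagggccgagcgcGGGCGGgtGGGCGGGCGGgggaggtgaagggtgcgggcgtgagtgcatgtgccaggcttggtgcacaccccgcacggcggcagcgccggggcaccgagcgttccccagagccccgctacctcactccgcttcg
Slc17a7 (chr7:45163671-45163920, plus strand): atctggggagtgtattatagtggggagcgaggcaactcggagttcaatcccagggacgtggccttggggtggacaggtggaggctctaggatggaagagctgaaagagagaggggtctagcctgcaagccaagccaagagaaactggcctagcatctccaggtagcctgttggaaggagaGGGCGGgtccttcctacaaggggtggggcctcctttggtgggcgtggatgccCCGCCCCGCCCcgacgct

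The windows have little letter pattern in common. GGGCGG matched 4 times in Emx1 and 3 times in Slc17a7, some of the matches overlapping, and it occurs in 33.0% of 32536 promoter windows of the same length. Tac1 held 1 match each to the E-box CAGATG, the homeodomain core and the GC box, the last next to the homeodomain core, and Isl1 held 1 match to the E-box CAGCTG. The former E-box occurs in 14.4% of all windows, the latter in 13.1%, the homeodomain core in 4.84%, the TATA box in 12.3% and the cAMP response element in 1.56%. Six3 and Neurod6 held none of the 6 motifs. CpG dinucleotides, the sites of DNA methylation, numbered 33 in Isl1, 30 in Emx1, 17 in Tac1, 10 in Six3, 9 in Slc17a7 and 3 in Neurod6, and the median window has 6.

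Transcription factors of the striatum led the H3K4me3 differences. Six3, a homeobox factor of the developing ventral forebrain, had 132, 128, 100.2 and 154 CPM in set B libraries 01, 02, 06 and 07 at its site (chr17:85611801-85626800). In set A libraries 03, 04, 05, 08 and 09, in this order here and below, it had 13.2, 5.19, 14.5, 58.9 and 28.9 CPM. The sets did not overlap, the difference was -2.85 (log2), and library 08 was the highest of set A. Isl1, a LIM homeodomain factor of the neurons that project from the striatum to the substantia nigra, had 70.6, 86.2, 62.6 and 89.9 CPM in set B and 14.6, 6.51, 7.497, 22.5 and 11.6 in set A (chr13:116296401-116315800), a difference of -2.75. Rarb, a retinoic acid receptor, differed by -0.81 at its H3K4me3 promoter sites and by -1.54 in H3K27ac. Foxp1, a forkhead factor of striatal and cortical neurons alike, differed by -0.02 in H3K4me3 with overlapping sets and by -0.59 in H3K27ac without overlap. Ebf1, a factor of early striatonigral neurons, overlapped in both marks, with differences of -0.10 and -0.48.

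The neuropeptide and receptor genes compared next were higher in set B as well. They come from the striatal list and from the ranking of sites and are not a fixed group. Tac1, which encodes the precursor of substance P, had 37.9, 41.04, 38.02 and 49.8 CPM of H3K4me3 in set B and 11.8, 9.15, 10.1, 18.2 and 11.3 in set A (chr6:7554201-7559600), a 3.52-fold difference without overlap. Oprk1, the kappa opioid receptor, had 26.2, 25.9, 23.8 and 34.7 CPM in set B and 9.82, 3.87, 5.03, 18.7 and 10.03 in set A (chr1:5587601-5591000), 3.36-fold apart. Adora2a, the adenosine receptor of striatopallidal neurons, differed by -1.57, Penk, the enkephalin precursor, by -1.43 and Drd1, the D1 dopamine receptor, by -0.98 in H3K4me3, all 3 without overlap. Drd2, the D2 dopamine receptor, had an H3K4me3 promoter peak in 8 of the 9 libraries and was not compared there. In H3K27ac, promoter peaks at Drd2, Tac1 and Isl1 were called in 4 of 4 set B libraries and in 0 of 5 set A libraries, and at Six3 in 4 of 4 and 1 of 5. Over all 51155 H3K27ac sites, 524 were called in every set B library only, 28 of them at promoters. In every set A library only, 39 were called, 1 of them at a promoter. A site needs a peak in at least 3 libraries and H3K27ac helped to choose the sets, so nothing is read from these calls.

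The signalling genes named next differed in the same direction in H3K4me3. They come from the striatal list and from the ranking of sites and are not a fixed group. Rgs9, a regulator of G protein signalling that is abundant in striatum, had 69.4, 67.6, 47.8 and 83.9 CPM of H3K27ac in set B and 14.3, 13.8, 12.2, 33.4 and 9.45 in set A (chr11:109284401-109300600), a difference of -2.13, and its H3K4me3 differed by -1.29. Rgs8, another member of that family, had 53.01, 54.7, 46.2 and 70.5 CPM of H3K4me3 in set B and 12.6, 7.32, 11.1, 37.3 and 21.5 in set A (chr1:153664401-153671800), again without overlap, with library 08 the closest to set B. That is 1 of its promoter sites, and their sum differed by -0.96. Gng7, the G protein gamma subunit of striatal dopamine signalling, differed by -1.15 in H3K4me3, and by -0.27 over an H3K27ac site that it shares with 4 other genes, so that value cannot be assigned to Gng7. The phosphodiesterase Pde10a differed by -0.34 and -0.82. Ppp1r1b, which encodes the dopamine-regulated phosphatase inhibitor DARPP-32, differed by -0.39 in H3K4me3, over a site shared with Stard3. In H3K27ac its start site lay in a broad site shared with Neurod2 of pyramidal neurons and 4 other genes, and that site differed by -0.00, so the H3K27ac value cannot be assigned to either gene.

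Ion channels and adhesion molecules completed the top of the H3K4me3 ranking for set B. The potassium channel gene Kcna5 had 24.98, 33.4, 24.3 and 34.95 CPM in set B and 7.67, 7.73, 5.52, 12.1 and 9.73 in set A (chr6:126530401-126536200), a difference of -1.81. Cntnap2, a neurexin-family adhesion molecule, had 18.8, 21.7, 19.2 and 27.96 CPM in set B and 4.91, 5.8998, 9.39, 8.605 and 5.79 in set A at 1 of its promoter sites (chr6:47244001-47247000). Cacng5, an auxiliary subunit of AMPA-type glutamate receptors, had 31.2, 58.2, 23.97 and 37.9 CPM in set B and 11.3, 9.36, 13.3, 11.7 and 11.04 in set A (chr11:107910601-107916400). All 3 were without overlap, at 3.51-fold, 3.23-fold and 3.18-fold.

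GABAergic genes were also higher in set B, but not all of them. The list of interneuron genes holds enzymes, a transporter and transcription factors that striatal projection neurons use as well, beside markers that they lack. In H3K27ac, 8 of the 10 measured genes were higher in every set B library, as were 7.4% of all genes, with a median difference of -1.58. These 8 rest on 6 sites, since Dlx1 shares a site with Dlx2 and Dlx5 with Dlx6. In H3K4me3, 6 of 11 were higher in set B, as were 5.35% of all genes, and none in set A, with a median of -0.98. Gad1 and Gad2, the enzymes that make GABA, led with Dlx5 and Dlx6, homeobox factors of the ventral forebrain. Gad1 had 130, 166, 87.9 and 156 CPM of H3K27ac in set B and 23.8, 21.7, 32.3, 46.4 and 18.6 in set A (chr2:70555801-70596200), a difference of -2.28. Gad2 had 53.997, 76.8, 39.7 and 66.8 CPM in set B and 12.1, 9.67, 17.4, 19.3 and 8.66 in set A (chr2:22617001-22633800), a difference of -2.17. The shared Dlx5 and Dlx6 site had 174, 233, 139 and 214 CPM in set B and 34.05, 29.3, 42.9, 70.6 and 15.5 in set A (chr6:6847001-6883200). Library 09, the shallowest, was the lowest of the 9 at this site. Slc32a1, the vesicular GABA transporter, differed by -1.37 in H3K4me3, and by -0.53 in H3K27ac over a site shared with Actr5.

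Markers of cortical interneuron classes did not share a direction. Adarb2, a marker of interneurons from the caudal ganglionic eminence, was higher in every set B library, with differences of -0.98 in H3K4me3 and -1.70 in H3K27ac. Pvalb, the calcium buffer parvalbumin of fast-spiking interneurons, differed by 0.43 in H3K4me3 and 0.47 in H3K27ac, with overlapping sets in both. Lhx6, a factor of interneurons from the medial ganglionic eminence, differed by 0.13 and -0.00, and Npas1, a bHLH-PAS factor of interneurons, by 0.15 in H3K4me3, all with overlap. Sst and Vip, the peptides of further classes, had no H3K27ac promoter site, which needs a peak in at least 3 libraries.

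Genes of cortical pyramidal neurons went the opposite way. All 10 listed genes had sites of both active marks in every library, the cortical factors Emx1 and Tbr1 among them. In H3K4me3, 7 of the 10 listed genes were higher in every set A library, as were 4.29% of all genes, and none in set B, with a median difference of 0.71. In H3K27ac the median was 0.62, and 9 of 10 differences were above 0, yet in none did the sets stay apart. At the level of the list, library 06 of set B (0.12, mean log2 distance from the mean over libraries) lay above library 08 of set A (0.00). Neurod6, a bHLH factor of pyramidal neurons, had 72.04, 62.6, 58.9, 62.3 and 68.02 CPM of H3K4me3 in set A and 23.97, 19.2, 53.1 and 24.9 in set B (chr6:55675801-55684400), a difference of 1.21. Library 06 was the highest of set B. Emx1, a homeobox factor of the dorsal forebrain, had 129.9, 121, 98.5, 90.2 and 111 CPM in set A and 51.99, 40.5, 83.7 and 41.9 in set B (chr6:85185801-85195400), a difference of 1.07. The vesicular glutamate transporter Slc17a7 differed by 0.72 and the deep-layer factor Tbr1 by 0.69, both without overlap. Camk2a, a kinase gene that striatal neurons also express, differed by -0.03.

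Genes of single cortical layers did not share a direction. The shares of all genes were 4.29% for set A and 5.35% for set B in H3K4me3, and 2.02% and 7.4% in H3K27ac. Among upper-layer genes, Lhx2 and Rorb were higher in set A in H3K4me3 (2 of 8, with a median of 0.08 over the list) and none in H3K27ac. Lhx2, a LIM homeodomain factor of cortical progenitors and upper-layer neurons, differed by 0.93 over its promoter sites, and the nuclear receptor Rorb of layer 4 by 0.40. Among the 10 deep-layer genes, Fezf2, Sox5 and Nr4a2 were higher in set A in H3K4me3, with differences of 0.96, 0.69 and 0.45. Bcl11b and Syt6 were higher in set B, at -0.97 and -1.20. In H3K27ac no deep-layer gene was higher in set A, and Bcl11b, Syt6 and the forkhead gene Foxp2 were higher in set B, at -1.02, -2.57 and -0.59. The list median there was -0.16, and the level of the list was lower in every set A library. Bcl11b, a zinc-finger factor of neurons that project to the brainstem and spinal cord, is also made by striatal projection neurons. Syt6, a synaptotagmin, had 87.7, 118, 83.7 and 133 CPM of H3K27ac in set B and 14.1, 14.9, 6.62, 63.6 and 18.1 in set A (chr3:103567201-103604600), a 5.95-fold difference without overlap.

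**Figure D2:**
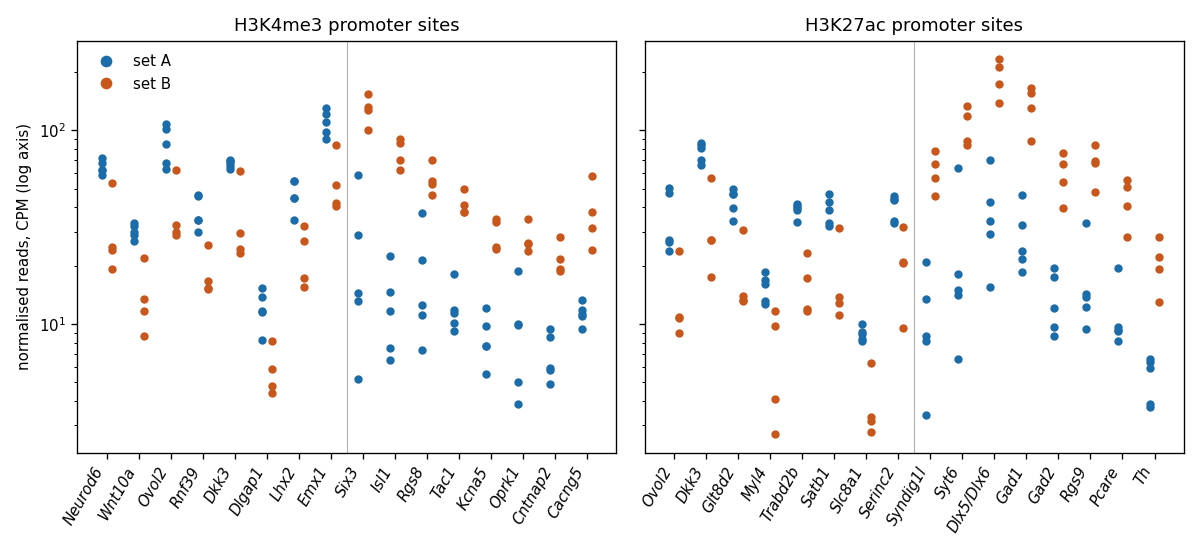
Normalised reads (CPM, log axis) in each of the 9 libraries at the promoter sites with the largest differences that did not overlap, 8 in each direction, for H3K4me3 on the left and H3K27ac on the right. Each point is a library, set A in blue and set B in orange, and the grey line parts sites higher in set A from those higher in set B: at Six3 set A runs from 5.19 to 58.9 and set B from 100.2 to 154.

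The other leading promoters of set A included secreted factors and signalling genes. Ovol2, a zinc-finger transcription factor, led in H3K27ac, with 50.5, 47.3, 27.1, 26.6 and 23.9 CPM of H3K27ac in set A and 10.8, 10.7, 23.8 and 8.97 in set B (chr2:144323401-144335000). Its H3K4me3 was 107, 101, 63.02, 67.9 and 85.2 CPM in set A and 29.8, 28.7, 62.7 and 32.6 in set B, a difference of 1.19. In neither mark did the sets overlap, although library 06 fell just short of set A. Dkk3, a secreted protein of the Dickkopf family, had 86.5, 80.6, 84.2, 70.1 and 66.1 CPM of H3K27ac in set A and 27.2, 26.97, 57.04 and 17.5 in set B (chr7:112135401-112169000), and differed by 1.40 in H3K27ac and 1.08 in H3K4me3. In H3K4me3 the ligand gene Wnt10a differed by 1.20, the RING-finger gene Rnf39 by 1.09 and Dlgap1, a scaffold of the postsynaptic density, by 1.08 at 1 site, while the sum over its 3 promoter sites differed by 0.16. In H3K27ac, the glycosyltransferase-family gene Glt8d2 differed by 1.38, the myosin light chain gene Myl4 by 1.36 at 1 of its 2 sites, and Satb1, a chromatin organiser, by 1.29 at 1 of 2. Summed over their promoter sites these genes differed by 0.26 and 1.08, and the sets overlapped in both. Trabd2b, a membrane metalloprotease that acts on Wnt ligands, differed by 1.34, the sodium-calcium exchanger Slc8a1 by 1.28 and Serinc2 by 1.08.

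The remaining H3K27ac promoters that led for set B were Syndig1l, Pcare and Th. Syndig1l, a relative of a synapse differentiation gene, had 66.6, 56.8, 45.9 and 78.3 CPM in set B and 8.67, 3.37, 13.5, 20.95 and 8.13 in set A (chr12:84672601-84699600), the largest promoter difference in H3K27ac at -2.72. Pcare, known from photoreceptor cilia, differed by -2.01. Th, tyrosine hydroxylase of dopamine synthesis, had 19.2, 28.2, 13.002 and 22.1 CPM in set B and 5.91, 3.87, 6.33, 3.701 and 6.56 in set A (chr7:142897801-142906600), without overlap. Of the 2 olfactory bulb genes measured in H3K27ac, Th was the one that separated the sets, beside 7.4% of all genes higher in set B. Th had no H3K4me3 promoter site. None of the 4 olfactory bulb genes measured in H3K4me3 separated the sets, and their median difference was 0.02.

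Away from promoters, 752 of 13485 H3K27ac sites (5.58%) were higher in every library of set A and 687 (5.09%) in every library of set B. The sites with the largest differences in set B lay 59064 bases from the nearest TSS, that of the calcium channel subunit gene Cacna2d3 (chr14:29642601-29662800), and 53019 bases from that of Meis2, a homeobox factor of striatal neurons (chr2:115987801-116011600). The Meis2 site had 50.6, 63.5, 41.5 and 65.02 CPM in set B and 6.94, 5.02, 6.45, 27.04 and 7.35 in set A, a difference of -2.67. Sites nearest to Kazn and to Pcp4, a calmodulin-binding peptide of striatal and other neurons, differed by -2.47 and -2.35. For set A the leading site was nearest to the uncharacterised Gm30933, at a distance of 211978 bases (chr9:30206401-30215000), with 20.4, 20.2, 11.97, 14.1 and 15.5 CPM in set A and 4.199, 2.61, 6.599 and 3.25 in set B. The next were nearest to Thumpd2, 9430014N10Rik and Gm41341, with differences of 1.89, 1.85 and 1.84. Distal sites whose nearest TSS was that of a striatal marker did not share a direction, with 3 of 21 higher in set A and 6 in set B. Of the 8 nearest to a deep-layer gene, 4 were higher in set A and none in set B.

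Some genes that separated the sets in one active mark did so in the other, though most did not. Of 13712 genes with both marks in all 9 libraries, 304 were higher in set B in both, which is 30.01% of the 1013 in H3K27ac and 41.8% of the 728 in H3K4me3. For set A it was 80 genes, or 31.9% of 251 and 13.8% of 579. In 8 genes the marks separated in opposite directions. Over all compared genes, 7.4% were higher in set B in H3K27ac and 5.35% in H3K4me3, and 2.02% and 4.29% in set A. Both marks chose the sets and share the assumed animals, so this overlap has no test.

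Some libraries lay nearer to the other set than the rest. A list's level in a library is the mean log2 distance of its genes from their own mean over the 9 libraries. For the striatal list in H3K4me3, set A stood at -0.63, -0.87, -0.72, 0.02 and -0.38 and set B at 0.67, 0.65, 0.48 and 0.79. Library 08 was the highest of set A and library 06 the lowest of set B, which was also so in H3K27ac. Set A stood at 0.41, 0.39, 0.25, 0.12 and 0.32 for the pyramidal neuron list in H3K4me3, and set B at -0.33, -0.69, 0.08 and -0.54. Here library 06 lay next to set A and library 08 next to set B. Libraries 08 and 09 are also those whose file names carry a number with the prefix S, which no other cortex library has, and what it means was not given in the sources used here.

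The differences had the same sign among libraries with and without the Xist peak. Among libraries 01 to 04, which had none, the median H3K4me3 difference of the striatal list was -1.32, and among libraries 05 to 09 it was -0.88. In H3K27ac these values were -0.93 and -0.71. For the pyramidal neuron list in H3K4me3 they were 0.89 and 0.53.

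Lists of non-neuronal cells differed less, and their counts stand beside shares over all genes of 4.29% higher in set A and 5.35% in set B in H3K4me3, and 2.02% and 7.4% in H3K27ac. For astrocytes the median differences were 0.21 in H3K4me3 and 0.12 in H3K27ac, with 2 of 10 genes higher in set A in each mark, and for oligodendrocytes 0.18 and 0.13, with 0 and 1 of 12. Microglia gave -0.05 and -0.11 with no gene on either side in 9 and 11 measured, and genes of microglia at amyloid plaques 0.02 and 0.04, with 1 of 6 higher in set B in each. Endothelial genes gave 0.16 and -0.07, and mural cells 0.07 and -0.14, with none that separated the sets. Of choroid plexus and ependymal genes, 3 had H3K4me3 in all libraries, with a median of -0.17, and the chloride channel gene Clic6 was higher in set B while Foxj1 differed by 0.11. The level of these 3 genes did not overlap between the sets, at -0.36 to -0.06 in set A and 0.13 to 0.41 in set B. For Clic6 the H3K4me3 was 29.9, 32.1, 24.5 and 40.1 CPM in set B and 8.08, 9.66, 8.98, 15.04 and 11.9 in set A, a difference of -1.57. Ttr, the transthyretin gene that defines the choroid plexus, had no H3K27ac promoter site. Oligodendrocyte precursor genes gave 0.02 and -0.22, with 1 of 5 higher in set B in each mark. Meningeal fibroblast genes gave 0.04 and -0.11, reactive astrocyte genes 0.13 and 0.06 and skeletal muscle genes 0.04 and 0.09, with none that separated the sets. A single leukocyte gene was measured, in H3K27ac, and was higher in set B at -0.33. No hippocampal or thalamic gene separated the sets in H3K27ac, and in H3K4me3 1 of 6 hippocampal genes was higher in set A. The 6 thalamic genes had a median of 0.22 in H3K4me3, with a highest difference of 0.88, and none separated the sets.

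Genes that respond to activity, time of day and stress had medians closer to those of all genes than the striatal, interneuron and pyramidal lists. Over all genes, 4.29% were higher in set A and 5.35% in set B in H3K4me3, and 2.02% and 7.4% in H3K27ac. Of 14 rapid activity-induced genes, such as Fos and Junb, 2 were higher in set A in H3K4me3 and 1 in H3K27ac, with medians of 0.06 and -0.03. Fos, a subunit of the AP-1 transcription factor, differed by 0.23 and 0.13. Late activity-induced genes had medians of -0.00 and -0.14, with 3 of 11 higher in set B in H3K27ac, and in H3K4me3 2 higher in set B and 1 in set A. Glucocorticoid-responsive genes had medians of -0.00 and -0.14 too, with 3 of 10 higher in set B and 1 in set A in H3K27ac, and 1 higher in set A in H3K4me3. Clock genes had medians of 0.01 and -0.06, heat-shock genes 0.06 and -0.05, hypoxia-responsive genes 0.03 and 0.07 and interferon-responsive genes 0.18 and 0.01. In H3K27ac, 2 of 9 hypoxia genes were higher in set A and 1 of 13 clock genes in set B. In H3K4me3, 1 of 7 interferon genes was higher in set A and 1 clock gene in each set, and no other gene of these 4 lists separated the sets. Of the 10 distal H3K27ac sites nearest to a hypoxia gene, 4 were higher in set A, as were 5.58% of all distal sites, and none in set B. Synapse genes gave -0.08 and -0.09, with 3 of 14 higher in set B in each mark, and housekeeping genes -0.02 and -0.09, with 2 of 9 higher in set B in H3K27ac. Fewer cells of a type and less signal in each cell cannot be told apart in these tissue libraries, and neither can differences in the dissected area.

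H3K27me3 was not used to choose the sets and was tested on the same split. Over 83556 bins of 10 kb, the mean Spearman correlation was 0.713 within sets and 0.669 between them, a gap of 0.0440. This was the largest of the gaps of all 126 splits (exact permutation test over the splits, one-sided p = 0.00794, the smallest that 126 splits allow). Single pairs overlapped, with 0.685 the lowest correlation within sets and 0.724 the highest between them. Library 06 of set B correlated on average at 0.688 with its own set and at 0.705 with set A, while each of the other 8 libraries correlated more with its own set. Without libraries 08 and 09 the gap was 0.0452 and no longer the largest, as 2 of 35 splits had a gap at least as large (exact permutation p = 0.0571, where the smallest possible is 0.0286). Among libraries 01 to 04 the gap was 0.0865 and among 05 to 09 it was 0.0304, where the exact permutation test can give no p below 0.333 and 0.1, and gave those. The labels do not name the animals, so the p-values measure only the spread between these libraries.

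Summary measures of the H3K27me3 libraries did not pass a test. Reads in peaks were 5.47 ± 0.705 M in set A (SD, n = 5) and 4.57 ± 0.515 M in set B (SD, n = 4), with a two-sided exact permutation p of 0.0794 and 0.317 after Benjamini-Hochberg adjustment over 4 measures. Without library 05 the unadjusted exact p was 0.0286. The covered length was 265 ± 28.4 Mb and 237 ± 33.8 Mb (exact p = 0.222, adjusted 0.444). For the number of peaks the exact p was 0.746, and for the share of reads in promoter peaks it was 0.802, both 0.802 after adjustment.

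At single sites, H3K27me3 differed in both directions. Of 11725 sites called in all 9 libraries, 226 (1.93%) were higher in set A and 129 (1.1%) in set B by edgeR's quasi-likelihood test at an adjusted p under 0.1. DESeq2 called 546 and 393, and with uncalled sites entered at 0 reads edgeR called 22 and 16. Without libraries 02, 03, 04, 07 or 09 the count for set A was 102, 85, 73, 79 or 98, and without 06 it was 416. For set B the count was 60, 31, 42, 29, 21 or 53 without libraries 01, 02, 03, 04, 07 or 09, and 210 without 06. Called in the full set and in each of the 9 refits were 52 sites higher in set A and 19 in set B. With libraries 08 and 09 both left out, 41 were called in each direction.

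The sites with the largest called differences lay at promoters and away from them. Eya1, a transcriptional coactivator with phosphatase activity, had 95.5, 101, 37.8, 72.1 and 80.3 CPM in set A and 22.9, 15.4, 30.7 and 16.2 in set B at its promoter (chr1:14287001-14317600). The difference was 1.86 ± 0.31 (log2, SE; edgeR adjusted p = 0.0251), and the sets did not overlap. The promoter site of Filip1, which encodes a filamin-interacting protein, had 113, 99.1, 93.9, 76.2 and 119.7 CPM in set A and 15.8, 22.7, 62.3 and 21.9 in set B (chr9:79963801-79991000), a difference of 1.71 ± 0.34 (edgeR adjusted p = 0.0387). Away from promoters, the site nearest to Insyn2b had 237, 280.3, 245, 254 and 229 CPM in set A and 102, 69.9, 109.9 and 62.4 in set B (chr11:34347601-34414600), at 1.53 ± 0.16 (edgeR adjusted p = 0.00293). The site nearest to Sulf1, a heparan sulfate endosulfatase, differed by 1.56 ± 0.31 (edgeR adjusted p = 0.0387). The site nearest to Zfhx3, a homeobox factor that striatal neurons express, differed by 2.23 ± 0.50 (edgeR adjusted p = 0.0543). It had 105, 109, 94.4, 11.3 and 115 CPM in set A and 22.3, 15.1, 20.2 and 16.5 in set B, so library 08 stood below all of set B, and the call held in 4 of the 9 refits with a library left out.

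In set B the largest difference was at a site nearest to Dmbt1, -2.85 ± 0.34 (edgeR adjusted p = 0.00565), with 134, 133, 44.6 and 188 CPM in set B and 13.6, 22.1, 20.01, 12.98 and 17.8 in set A (chr7:130970401-131011000). The site nearest to Ephb2, an ephrin receptor, had 251, 237, 71.96 and 181 CPM in set B and 25.97, 23.4, 59.2, 69.1 and 34.5 in set A, a difference of -2.12 ± 0.37 (edgeR adjusted p = 0.0287). In both, library 06 was the lowest of set B and still above every library of set A. At promoters, the glycosyltransferase gene Gcnt4 differed by -1.86 ± 0.29 (edgeR adjusted p = 0.0251). Sulf2, the other endosulfatase, differed by -1.77 ± 0.37 (edgeR adjusted p = 0.0474), with library 06 at 52.6 CPM below library 05 at 57.5. Kcnj6, a G protein-gated potassium channel, differed by -1.67 ± 0.41 (edgeR adjusted p = 0.0696), and its call held in 3 of the 9 refits.

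**Figure D3:**
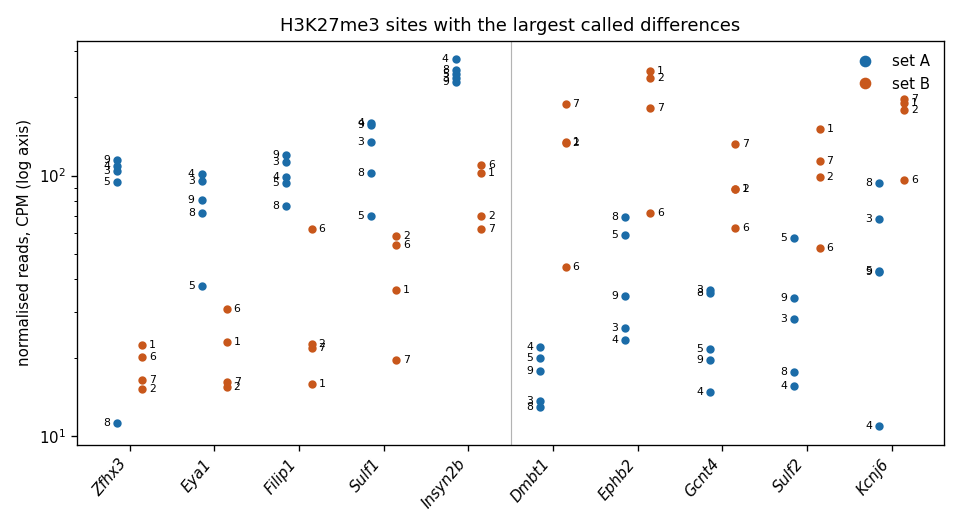
Normalised H3K27me3 reads (CPM, log axis) in each library at the 5 called sites with the largest change in each direction, named by the gene at or nearest to the site, with set A in blue, set B in orange and the title number beside each point. At Insyn2b set A runs from 229 to 280.3 and set B from 62.4 to 109.9, while at Zfhx3 library 08 lies below set B.

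Some promoters of pyramidal neuron genes had more H3K27me3 in set B. H3K27me3 was tested at the promoters of 4870 genes, of which 83 (1.7%) were higher in set A and 80 (1.64%) in set B. Of 8 tested pyramidal neuron genes, 4 were higher in set B and none in set A, with a median difference of -0.51, beside -0.04 over all tested genes. Emx1 had 184, 183, 153 and 175 CPM in set B and 85.1, 89.5, 138, 135 and 95.2 in set A (chr6:85184001-85214000), a difference of -0.68 ± 0.15 (edgeR adjusted p = 0.056). Neurod2, a bHLH factor related to Neurod6, differed by -0.50 ± 0.09 (edgeR adjusted p = 0.0298) and Slc17a7, whose site also holds the starts of Gfy and Pth2, by -0.37 ± 0.10 (edgeR adjusted p = 0.0915). The Neurod2 call held in all 9 refits with a library left out, and those of Emx1 and Slc17a7 in 3. Neurod6 had the largest difference of the list, -1.26 ± 0.43, and did not pass (edgeR adjusted p = 0.175). The median was -0.66 among libraries 01 to 04 and -0.37 among 05 to 09.

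Of 12 tested interneuron genes, Gad1 and Gad2 were higher in set A and Lhx6 in set B, beside 1.7% and 1.64% of all tested genes. The list median was 0.28, beside -0.04 over all tested genes. Gad1 had 263, 293, 265, 271 and 289 CPM of H3K27me3 in set A and 145, 115, 225 and 133 in set B (chr2:70548001-70593800), a difference of 0.84 ± 0.16 (edgeR adjusted p = 0.0308) that was called in all 9 refits. Gad2 had 204, 225, 236, 122 and 212 CPM in set A and 134, 75.9, 137 and 87.4 in set B (chr2:22616401-22663000), a difference of 0.88 ± 0.21 (edgeR adjusted p = 0.0641), called in 3 of 9. Lhx6 differed by -0.23 ± 0.06 (edgeR adjusted p = 0.0945), called in 1 of 9.

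Striatal genes showed smaller H3K27me3 differences. Of 10 tested, Tac1 was higher in set A and none in set B, beside 1.7% and 1.64% of all tested genes. The striatal median was 0.11, beside -0.04 over all tested genes. This striatal median was -0.05 when reads within 2.5 kb of the TSS were used in place of sites. Tac1 had 66.5, 74.5, 80.6, 58.1 and 78.95 CPM in set A and 45.2, 38.6, 53.7 and 43.7 in set B (chr6:7551801-7566200), a difference of 0.66 ± 0.17 (edgeR adjusted p = 0.0834), called in 2 of the 9 refits. Six3 and Isl1, which led in H3K4me3, differed in H3K27me3 by 0.10 ± 0.06 (edgeR adjusted p = 0.426) and 0.06 ± 0.08 (edgeR adjusted p = 0.797) and did not pass. Their sites spanned 130600 and 31200 bases (chr17:85588801-85719400 and chr13:116289401-116320600), and that of Six3 is shared with Six2. The called Gad1 site spanned 45800 bases.

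The 8 leading promoters per active mark and direction belong to 31 genes, of which 23 had a tested H3K27me3 site. Of these, 7 were called, each in the direction opposite to its active marks, beside 1.7% called higher in set A and 1.64% in set B over all tested genes. The other 16 did not pass, and 15 of them had a sign opposite to that of the active marks, with differences as small as -0.01 in Rnf39 and -0.07 in Wnt10a. The other was Rgs8 at -0.04, the sign of its H3K4me3. Dlx5 and Dlx6, counted as separate genes here, share a site. Of 2291 genes with both H3K4me3 and H3K27me3 that were not called, 66.7% had opposite signs in these marks. Kcna5 had 122, 115, 107, 111 and 141 CPM of H3K27me3 in set A and 56.05, 79.5, 71.96 and 76.6 in set B (chr6:126513401-126538400), a difference of 0.75 ± 0.14 (edgeR adjusted p = 0.03). Ovol2 had 81.6, 79.01, 65.3 and 81.7 CPM in set B and 31.4, 36.3, 41.2, 43.6 and 39.1 in set A (chr2:144324601-144337000), a difference of -1.004 ± 0.17 (edgeR adjusted p = 0.0251). The calls of Kcna5, Ovol2 and Clic6 held in all 9 refits with a library left out, that of Fezf2 in 6, those of Ttr and Hk2 in 5, and those of Lhx2, Nr4a2, Prkcd and Nrn1 in 3. Fezf2 differed by -0.46 ± 0.09 (edgeR adjusted p = 0.0401), Lhx2 by -0.36 ± 0.09 (edgeR adjusted p = 0.0625) and Nr4a2 by -0.72 ± 0.17 (edgeR adjusted p = 0.0601), all higher in set B. Clic6 was higher in set A at 0.57 ± 0.11 (edgeR adjusted p = 0.0313), as was Ttr, the other called gene of the choroid plexus list, at 1.35 ± 0.31 (edgeR adjusted p = 0.056). Outside the neuronal lists, Prkcd of the thalamic list, Nrn1 of the late activity-induced list and Hk2 of the hypoxia list were higher in set B, and no gene of the astrocyte, oligodendrocyte, microglia, endothelial or mural lists was called, where the medians were -0.37, -0.20, -0.10, -0.04 and -0.09. The H3K27me3 level of a list is the mean log2 distance of its genes from their mean over 9 libraries. For the oligodendrocyte list it was lower in every set A library, at -0.27 to -0.00 against 0.11 to 0.17 in set B. The levels of the oligodendrocyte precursor, plaque microglia, thalamic and hypoxia lists were also lower in every set A library. That of the choroid plexus list was higher in every set A library, at 0.08 to 0.22 against -0.32 to -0.04 in set B.

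H3K27me3 was also read over the genes that the active marks parted. Over all 4870 tested genes, 2759 H3K27me3 differences were below 0 and 2111 above, and 1.7% were called higher in set A and 1.64% in set B. Of the 195 genes with more H3K4me3 in every set A library and a tested H3K27me3 promoter site, 17 had more H3K27me3 in set B and 0 in set A, and 169 differences were below 0. Of the 183 genes with more H3K4me3 in every set B library, 17 had more H3K27me3 in set A and 0 in set B, and 143 differences were above 0. Among genes with at least a 1.5-fold H3K4me3 difference, all 43 higher in set A had an H3K27me3 difference below 0, and 68 of the 82 higher in set B had one above 0. For genes parted by H3K27ac the H3K27me3 calls were 10 for set B and 0 for set A among 65 genes higher in set A, and 12 for set A and 0 for set B among 192 genes higher in set B. Of 2384 genes with both H3K4me3 and H3K27me3 in all 9 libraries, 93 were called in H3K27me3, and in 84 of these the H3K4me3 difference had the opposite sign (90.3%). Over all 2384 genes it had the opposite sign in 1613 (67.7%). The marks were measured in what are taken to be the same animals, so these counts describe those animals.

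**Figure D4:**
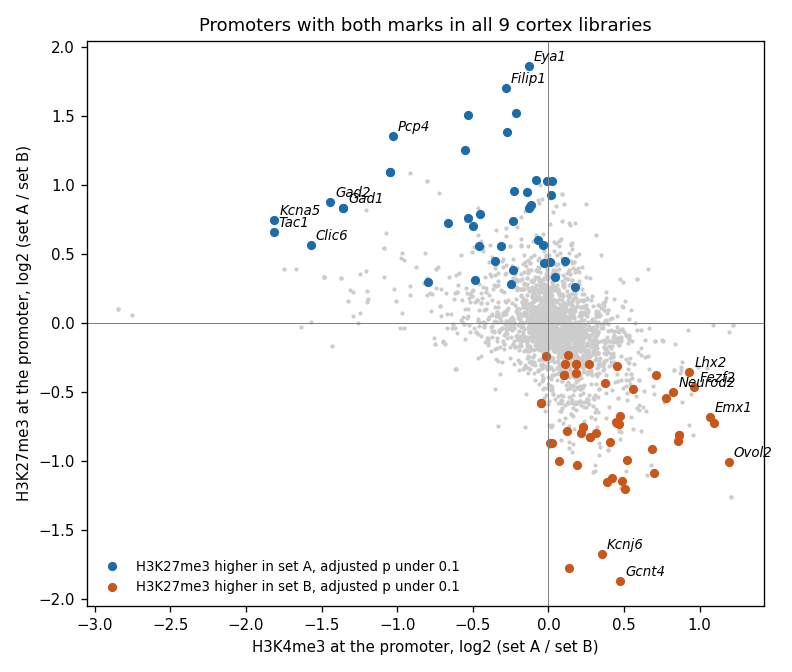
Log2 difference (set A over set B) of H3K27me3 against that of H3K4me3 at the promoters of 2384 genes with both marks in all 9 libraries, each point a gene. Blue points had more H3K27me3 in set A and orange points more in set B by edgeR at an adjusted p under 0.1, grey points were not called, and 84 of the 93 called genes lie in the upper left or lower right of the plot.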

How the data were processed

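Cortex chromatin of PSAPP mice was immunoprecipitated for H3K4me3, H3K27ac and H3K27me3 and sequenced. Per the study's methods and the submitters' processing notes, BWA and SAMtools were used for alignment to mm10 and for filtering out duplicates and low-quality reads, and the authors then ran epic2 on each library. The deposited files give each peak's ChIP read count and a score, which is not a read count and served only to drop the lowest 25% of peaks in an alternative. Replicates were not pooled.

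Peaks on chromosomes 1 to 19 called in at least 3 of the 9 libraries of a mark were merged into sites, and the counts of a library's peaks in a site were summed. Sites called in all 9 were scaled by the trimmed mean of M values (edgeR 4.0.16, R 4.3.3). A gene's promoter sites lay within 1 kb of a curated RefSeq TSS. The number of reads in a site that a library did not call is unknown, so sites missing in a library stayed out. Samples were grouped by title number. The sets, the genes and the 29 gene lists (281 genes) were chosen with earlier results of these data known.

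H3K27ac and H3K4me3 selected the sets and were described only. H3K27me3 was tested by edgeR's quasi-likelihood fit over all 11725 sites with Benjamini-Hochberg adjustment at 0.1, checked on simulated counts, with the standard error taken as the log2 difference over the root of the F statistic. A gene with several promoter sites took the test of the site with most reads. The correlation gap and library measures had exact permutation tests over 126 splits (NumPy 2.4.6, SciPy 1.17.1). Named were the 8 promoter sites with the largest differences in each direction per active mark, with a mean of at least 50 normalised reads, 4 distal H3K27ac sites, the leading members of each list, and the 5 H3K27me3 sites with the largest called change in each direction. Other members of the neuronal lists were named after their values were seen. Some list members are counted but not reported singly here.

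Alternatives were DESeq2 1.42.0, relative log expression scaling, scaling per total reads in autosomal peaks, a minimum of 20 reads, uncalled sites set to 0, a covariate for the Xist peak, other bins, reads within 2.5 kb of the TSS with a pseudocount of 1, and leaving out libraries. Total counts in autosomal peaks ran from 3.90 to 21.0 M (M for 1000000) per library. Counting precision is limited most in H3K27ac library 09 and in H3K27me3. Muscle libraries and the X chromosome, apart from Xist, were not analysed here.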

Additional observations from a re-analysis of the deposited data

Results flagged for a closer look

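Values that stood far from the other libraries of their set (Dixon's ratio at the 95% level, in 60 groups of 4 or 5 libraries) numbered 6, where chance alone gives about 1 group in 20. The levels are mean log2 distances of a list's genes from their mean over 9 libraries. H3K27ac of the interneuron list stood at -1.29 in library 09, below the other set A libraries, and that library had the fewest reads. H3K27ac of the microglia list stood at 0.17 in library 08, above the rest of set A. H3K4me3 of the microglia list stood at -0.14 in library 02, below the rest of set B. In H3K27me3, library 05 had 25.2% of its peak reads in promoter peaks, the highest of set A. The H3K27me3 level of the striatal list stood at -0.21 in library 01, below the rest of set B, and that of the oligodendrocyte list at 0.17 in library 02, above it. None of these was tested for a cause.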

How the results depend on the processing

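No paired analysis was possible because the sets share no title numbers. Over 20 results and 267 alternatives, 225 values kept their direction and their side of the threshold or moved by less than the spread, 36 moved further, 4 reversed, 1 passed a threshold newly and 1 no longer did. For the H3K27me3 site counts the limit was a 1.5-fold change in place of the spread. The cause was not tested where none is named.

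The H3K27me3 correlation gap was 0.0387 with 50 kb bins, 0.0253 with all bins and 0.0436 by covered bases (exact p = 0.00794 in each), 0.0363 to 0.0627 with 1 library left out, and 0.0452 without libraries 08 and 09 (exact p = 0.0571, with 2 of 35 splits at least as large, where the smallest possible p is 0.0286). H3K27me3 sites higher in set A numbered 546 by DESeq2, 22 with uncalled sites at 0, 41 without libraries 08 and 09 and 73 to 416 with 1 library left out. Those higher in set B numbered 393, 16, 41 and 21 to 210. With a covariate for the Xist peak they numbered 239 and 172. The difference in H3K27me3 reads in peaks ran from 0.676 to 1.16 M reads with 1 library left out, and the highest, without library 05, passed 0.05 unadjusted (exact p = 0.0286). The difference in peak number ran from -710.6 to 3469 and turned to -710.6 without library 07. The difference in promoter read share ran from -0.908 to 0.135 percentage points and turned to 0.104 without library 02 and 0.135 without library 07.

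H3K27ac sites higher in set A numbered 1208 to 2340 with 1 library left out and 2298 without libraries 08 and 09, and those higher in set B 1631 to 2329, 2573 and, with uncalled sites at 0, 3167 (beside 1408 for set A). H3K4me3 sites numbered 953 to 1409 and 1435 for set A and 984 to 1222 and 1437 for set B. Scaled per total reads in autosomal peaks, H3K27ac sites numbered 1177 and 1150. With fewer libraries, non-overlap is easier to meet by construction. With reads within 2.5 kb of the TSS, the striatal medians were -0.53 in H3K4me3, -0.31 in H3K27ac and -0.0518 in H3K27me3, the last reversed. The interneuron medians also moved further, in 3 alternatives in H3K4me3 and in 1 each in H3K27ac and H3K27me3. Depth limits low sites most in H3K27ac library 09 and in H3K27me3, where 1005 and 843 sites had an unadjusted p under 0.05.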
